A study of Mus musculus with 10 samples.

Results

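The cytosolic ribosomal protein genes were followed across 10 RNA-seq libraries from 5 mouse embryonic stem cell (mESC) lines. Members were taken by symbol alone, as every gene named Rpl or Rps with a number, with or without a closing a or x, together with Rplp0, Rplp1 and Rplp2. This gave 76 of the 20325 genes counted, of which 46 encode proteins of the large (60S) subunit and 30 proteins of the small (40S) subunit. Genes such as Rpsa and Fau, which also encode ribosomal proteins, carry other symbols and were kept apart.

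The lines differed in the histone chaperone DAXX or in the replication-independent histone H3.3. Daxx-/- mESCs (strain 129/SvEv) were compared with the same line after stable transduction with FLAG-tagged wild-type murine DAXX (Daxx-/-;WT). H3.3 KO mESCs, of a mixed 129 and C57BL/6J background, were compared with the same line carrying FLAG-HA-tagged wild-type H3.3 (H3.3 KO;WT) or H3.3 with the substitutions L126A and L130A as the labels give them (H3.3 KO;L126A-L130A). The paper of the study mostly writes the second substitution as I130A and names the residue of H3.3 as I130. The mutant served to ask which effects of H3.3 depend on its presence in chromatin and which on its contact with DAXX. Each line had 2 libraries, which the study calls biological replicates. Transgenes were driven by the EF1 promoter of a lentiviral vector, and transduced cells were selected with puromycin, with no cloning step described. Whether the KO lines carried an empty vector is not given in the sources used here. All 5 lines grew without feeders on gelatin with LIF and 2 inhibitors, CHIR99021 at 3 µM and PD0325901 at 1 µM. Each genotype rests on a single parental line, so genotype, strain and line history cannot be told apart between the Daxx and H3.3 lines.

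Libraries held between 15463625 and 21396585 expected counts. H3f3a, an H3.3 gene, had 390 to 498 CPM (expected counts scaled to an equal total per library) in the 4 Daxx-line libraries and 2.95 to 11.4 CPM in the 6 H3.3-line libraries. Daxx had 77.3 and 74.4 CPM in Daxx-/- and 194.5 and 207.7 CPM in Daxx-/-;WT, and H3f3b had 525 and 749 CPM in H3.3 KO against 293 and 388 CPM in Daxx-/-. Gene-level counts do not show which exons were deleted, so the reads left for Daxx and H3f3b do not check those labels. Markers of mESCs were present in every library (7 genes, 3273 to 5019 CPM in sum), with 3273 to 3708 CPM in the Daxx lines and 4222 to 5019 CPM in the H3.3 lines. Feeder fibroblast markers summed to at most 41.8 CPM, with 3 to 5 of 8 genes at 0, primitive endoderm markers to 27.1 to 224 CPM, of which Lama1 alone made 23.3 to 215 CPM, and trophoblast markers to at most 26.9 CPM. In these bulk libraries fewer cells of a type and less RNA per cell cannot be told apart, and p-values measure the spread between these libraries only.

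Ribosomes carry out protein synthesis, and each pairs a small subunit that decodes mRNA with a large subunit that forms the peptide bond. Their proteins are made in near-equal numbers from many genes spread over the genome, most of which start transcription at a cytosine within a pyrimidine tract, the terminal oligopyrimidine (TOP) motif that links their translation to growth signals. Embryonic stem cells divide fast and devote a large part of their mRNA to these genes.

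Promoters from RefSeq (GRCm38.p6) were matched to 56 of the 76 members, and 3 motifs near the annotated start were each found in a larger share of them than of all genes, though in none of the 3 cases in every member. A run of at least 8 pyrimidines that opens with C was found on the gene's strand between 20 bases before and 30 bases after the start in 31 of 56 members (55.4%) and in 17.0% of 27025 genes with a promoter. CTTTC, which can lie inside such a run, was found on the same strand and window in 35.7% of members and 7.66% of all genes. CGGAAG, the core of ETS factor motifs, was found on either strand of the 300-base promoter in 69.6% of members and 18.8% of all genes, and its reverse complement CTTCCG can overlap a pyrimidine run. The 30-base windows below, from 10 bases before to 20 bases after the start, are shown because these members represent the different responses described later, and capitals mark the longest C-led pyrimidine run. They lie at chr7:141447641-141447670 (plus strand) for Rplp2, chr17:27635225-27635254 (minus strand) for Rps10, chr11:114668570-114668599 (plus strand) for Rpl38, chr7:109519185-109519214 (plus strand) for Rpl27a, chr2:39005112-39005141 (minus strand) for Rpl35, chr5:115559457-115559486 (plus strand) for Rplp0 and chr11:97782420-97782449 (minus strand) for Rpl23.
Rplp2: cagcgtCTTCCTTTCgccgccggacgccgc
Rps10: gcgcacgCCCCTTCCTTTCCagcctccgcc
Rpl38: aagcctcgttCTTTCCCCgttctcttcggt
Rpl27a: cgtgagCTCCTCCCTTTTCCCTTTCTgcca
Rpl35: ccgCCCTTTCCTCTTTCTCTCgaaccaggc
Rplp0: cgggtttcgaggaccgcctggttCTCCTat
Rpl23: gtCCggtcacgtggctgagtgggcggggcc
The first 5 hold a run of at least 8 next to the start. Rplp0 and Rpl23 hold runs of 5 and 2 in the same window.

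Together the 76 members took 9.57% and 11.4% of all counts in Daxx-/- and 9.99% and 10.1% in Daxx-/-;WT. They took 7.52% and 7.56% in H3.3 KO, 8.27% and 8.45% in H3.3 KO;WT, and 7.40% and 8.02% in H3.3 KO;L126A-L130A. Every Daxx-line library was therefore above every H3.3-line library, and both H3.3 KO;WT libraries were above both H3.3 KO libraries. The mean share was 7.54% ± 0.0276 (SD, n = 2) in H3.3 KO and 10.5% ± 1.28 (SD, n = 2) in Daxx-/-, a ratio of 0.72. It was 1.11 times higher in H3.3 KO;WT than in H3.3 KO, and 0.922 times as high in H3.3 KO;L126A-L130A as in H3.3 KO;WT. Each of these had an exact permutation p (two-sided, over libraries) of 0.333, which is the smallest that 2 against 2 libraries allow. The mutant against H3.3 KO (ratio 1.02) and DAXX against Daxx-/- (ratio 0.96) overlapped, with exact permutation p = 1.0. With median-of-ratios scaling the mutant, at 77740 and 77190 scaled CPM in sum, lay above H3.3 KO, at 72820 and 72630, and the log2 ratio of the means went from 0.032 to 0.0911.

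**Figure D1:**
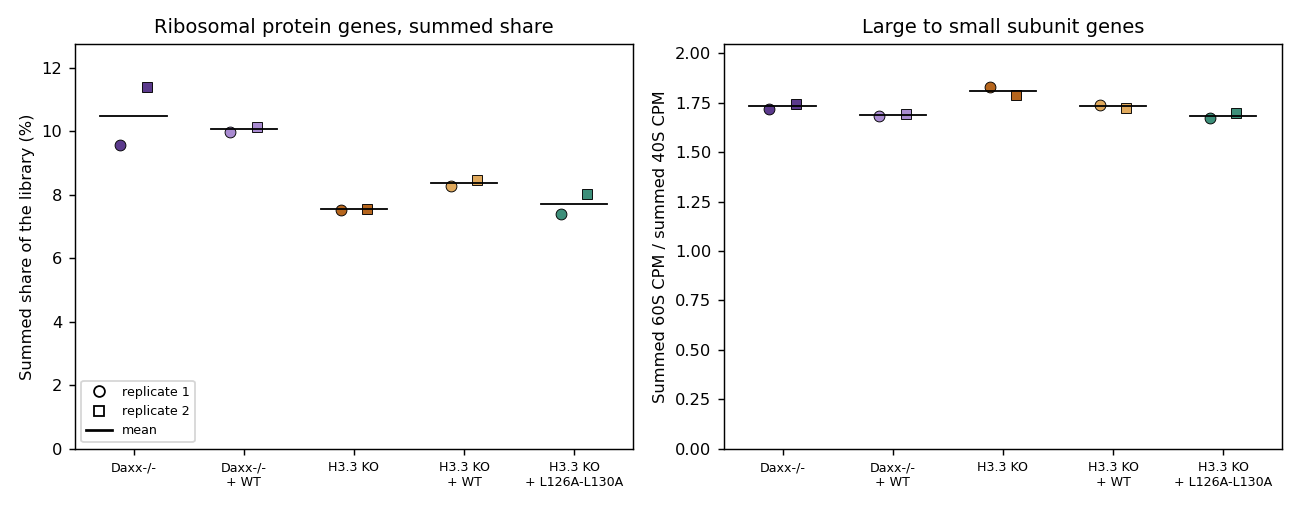
Summed share of the 76 ribosomal protein genes in each library (left, %) and summed CPM of the 46 large-subunit genes divided by that of the 30 small-subunit genes (right), with circles for replicate 1, squares for replicate 2 and lines for means. The 6 H3.3-line libraries sit between 7.40% and 8.45%, below the 4 Daxx-line libraries, and the subunit ratio is highest in H3.3 KO.

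The ratio of summed 60S to summed 40S CPM was 1.72 and 1.74 in Daxx-/- and 1.68 and 1.69 in Daxx-/-;WT. It was 1.83 and 1.79 in H3.3 KO, 1.74 and 1.73 in H3.3 KO;WT, and 1.67 and 1.70 in H3.3 KO;L126A-L130A. Each line carrying a transgene had both libraries below both libraries of its KO line, and both mutant libraries were below both H3.3 KO;WT libraries. All comparisons of this ratio gave exact permutation p = 0.333. Without Rplp0, the most abundant member, the ratio was 1.56 and 1.60 in Daxx-/- and 1.74 and 1.71 in H3.3 KO, and the log2 difference between these lines went from 0.062 to 0.13. The summed levels are not molar, since a longer transcript yields more fragments.

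Levels per kilobase of transcript, which allow genes to be compared, spanned a wide range among the 74 members with a transcript length of up to 3000 nucleotides. Rplp1, a protein of the acidic stalk that recruits elongation factors, was highest with a mean of 4129 CPM per kb, followed by Rps2, near the mRNA entry channel, with 3192 CPM per kb and Rps24 with 2934 CPM per kb. Among the lowest were Rpl34 with 24.5 CPM per kb and Rps27 with 28.3 CPM per kb. Rps27 was listed at 0.002 CPM or less in 7 libraries and had 14.3 CPM in Daxx-/- replicate 1, 66.0 CPM in Daxx-/-;WT replicate 1 and 17.4 CPM in H3.3 KO;WT replicate 2. The proteins of these members are core parts of the ribosome, and ribosomal protein genes have many near-identical processed pseudogenes, so the low estimates of Rps27 and Rpl34 are uncertain, and no fold change is given for Rps27. Rpl21 varied least over the 10 libraries, with an SD of 0.08 on the log2(CPM + 1) scale, and Rps27 varied most, with 2.35.

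Of the 5 comparisons made, only that between the KO lines themselves held members that passed the test. Of the 76 members, 49 (64.5%) were lower in H3.3 KO than in Daxx-/- and 1, Rpl23, was higher, with edgeR's quasi-likelihood test and Benjamini-Hochberg adjustment over all 13201 genes tested (called at adjusted p under 0.05). Over all genes 11.9% were called lower and 11.5% higher. The median log2 fold change was -0.56 over the 75 members with a fold change and -0.01 over all genes. Of the 30 small-subunit genes 24 fell, and of the 46 large-subunit genes 25 fell. At least 2-fold lower were 8 members, Rplp0, Rplp1, Rplp2, Rpl30, Rpl37, Rpl39, Rps19 and Rps29, beside 5.86% of all genes. Both H3.3 KO libraries lay below both Daxx-/- libraries in 63 members (82.9%, against 29.0% of all genes) and above in 4 (5.26%, against 31.1%).

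The acidic stalk stood at the bottom of this comparison. Its summed level was 9717 and 11020 CPM in Daxx-/-, 10530 and 9464 CPM in Daxx-/-;WT, 3890 and 3703 CPM in H3.3 KO, 4468 and 4441 CPM in H3.3 KO;WT and 4290 and 4232 CPM in H3.3 KO;L126A-L130A. The 3 stalk genes, on chromosomes 5, 9 and 7, all fell. Levels of single members below are CPM scaled by the median-of-ratios factors.

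Rplp1 had 3339 and 3544 scaled CPM in Daxx-/- and 1156 and 1150 in H3.3 KO. It fell by 1.58 on the log2 scale (SE 0.12, edgeR adjusted p = 0.000476). Rplp0, which anchors the stalk to the large subunit, had 6010 and 5916 scaled CPM in Daxx-/- and 2190 and 1947 in H3.3 KO, a log2 fold change of -1.53 (SE 0.15, edgeR adjusted p = 0.000754). For both genes the remaining Daxx-line libraries, 3358 and 2905 for Rplp1 and 6339 and 5144 for Rplp0, stayed above every H3.3-line library. Rplp2, the partner of Rplp1, had 1047 and 1198 scaled CPM in Daxx-/- and 419.5 and 460.0 in H3.3 KO, a log2 fold change of -1.35 (SE 0.13). Its 2 Daxx-/-;WT libraries were at 1511 and 1350, above both Daxx-/- libraries, and its H3.3 KO;WT and mutant libraries lay between 522 and 586.

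**Figure D2:**
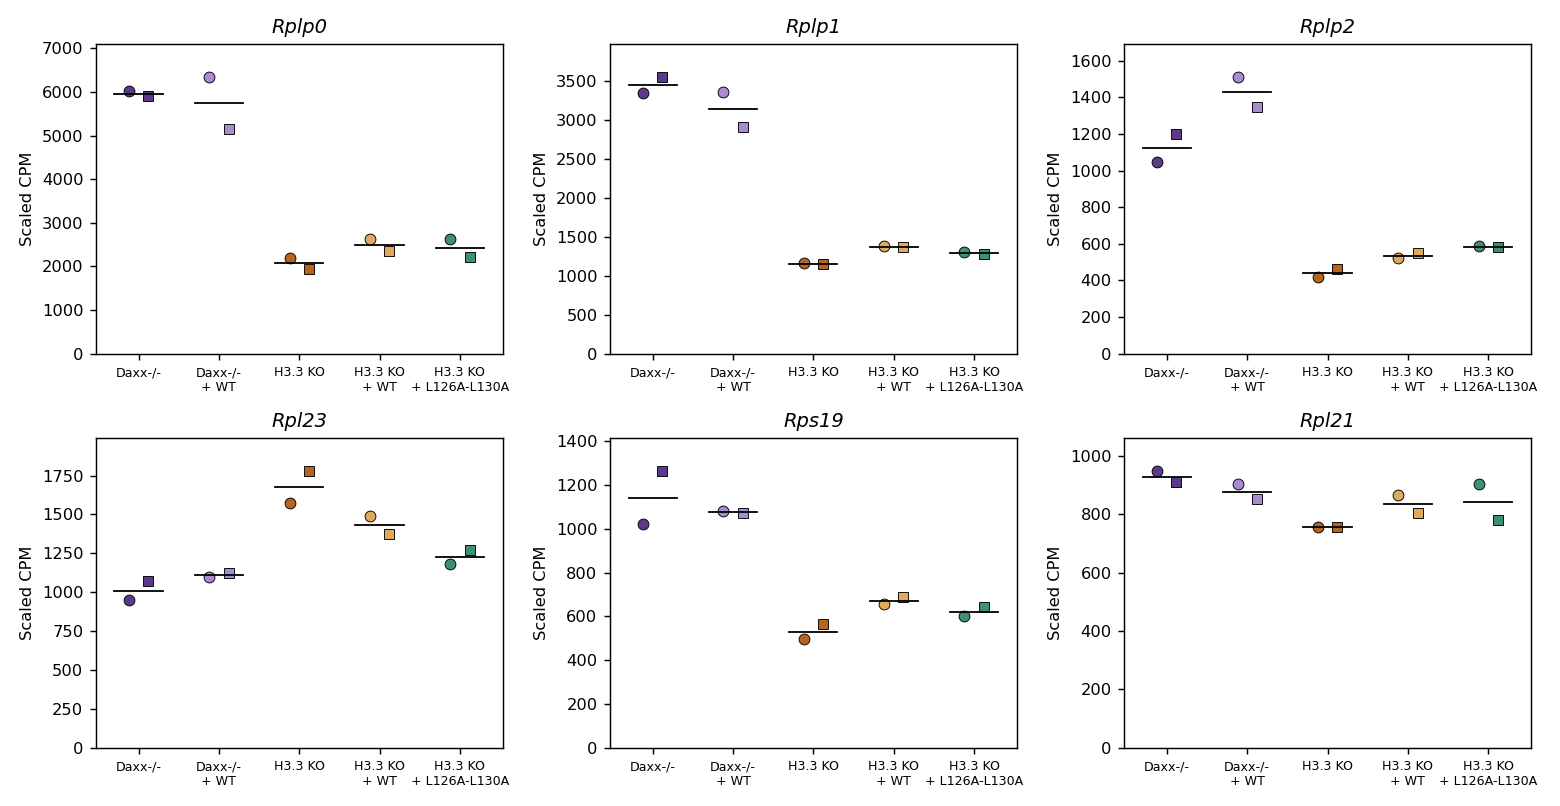
Scaled CPM of 6 members in each library, with circles for replicate 1, squares for replicate 2 and lines for means. Rplp0, Rplp1, Rplp2 and Rps19 are lower in the 6 H3.3-line libraries than in the 4 Daxx-line libraries, Rpl23 is higher, and Rpl21 varies least.

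Outside the stalk the members with the next lowest values were small proteins of either subunit. Rps19, needed for maturation of the small subunit and mutated in Diamond-Blackfan anaemia, had 1022 and 1263 scaled CPM in Daxx-/-, 1082 and 1072 in Daxx-/-;WT, 497 and 564 in H3.3 KO, 655.5 and 688.5 in H3.3 KO;WT and 603 and 641 in the mutant line. The H3.3 lines did not overlap the Daxx lines, and Rps19 fell by 1.11 (SE 0.14, edgeR adjusted p = 0.00176) between the KO lines. Rpl37 had a log2 fold change of -1.31 (SE 0.13), Rpl30 of -1.14 (SE 0.13), Rpl39, at the rim of the exit tunnel, of -1.13 (SE 0.13), and Rps29 of -1.12 (SE 0.13). Of 9 genes linked to Diamond-Blackfan anaemia, a ribosomal protein deficiency, 6 fell, among them Rps19, Rps24 and Rps26, and 3 did not pass the test. Of 9 genes at the exit tunnel rim, where nascent chains leave the ribosome, 4 fell (Rpl26, Rpl31, Rpl38 and Rpl39). Both counts stand beside 64.5% of the 76 members and 11.9% of all genes called lower. Whether either group differs from the other members was not tested.

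The remaining 26 members did not pass the test, and their values ranged on either side of 0. Rpl5 and Rpl11, which bind 5S rRNA and can hold the p53 ligase Mdm2, had log2 fold changes of 0.04 (SE 0.12) and -0.18 (SE 0.13). Rpl5 had 1768 and 1978 scaled CPM in Daxx-/- and 1889 and 1954 in H3.3 KO, so its groups overlapped. Rpl21 had 947 and 909 scaled CPM in Daxx-/- and 756 and 757 in H3.3 KO, with a log2 fold change of -0.30 (SE 0.12, edgeR adjusted p = 0.113).

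Rpl23, a large-subunit protein that can also bind Mdm2, went the other way. It had 949 and 1072 scaled CPM in Daxx-/-, 1099 and 1121 in Daxx-/-;WT, 1577 and 1777 in H3.3 KO, 1491 and 1377 in H3.3 KO;WT and 1180 and 1274 in H3.3 KO;L126A-L130A. All 6 H3.3-line libraries were above all 4 Daxx-line libraries, and Rpl23 rose by 0.73 (SE 0.13, edgeR adjusted p = 0.00541) between the KO lines. The other 1090 genes of its chromosome 11 had a median of 0.28 in this comparison, which leaves 0.45 for Rpl23, and its call was lost when the 4 libraries were fitted alone. It was the only member of the 76 without overlap in that direction (background 11.5% of genes). In the opposite direction 48 members (63.2%) had every H3.3-line library below every Daxx-line library, beside 11.1% of all genes. Rpl24 (0.19, SE 0.11), Rpl19 (0.15, SE 0.12) and Rps7 (0.15, SE 0.11) had the next highest log2 fold changes and did not pass the test.

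**Figure D3:**
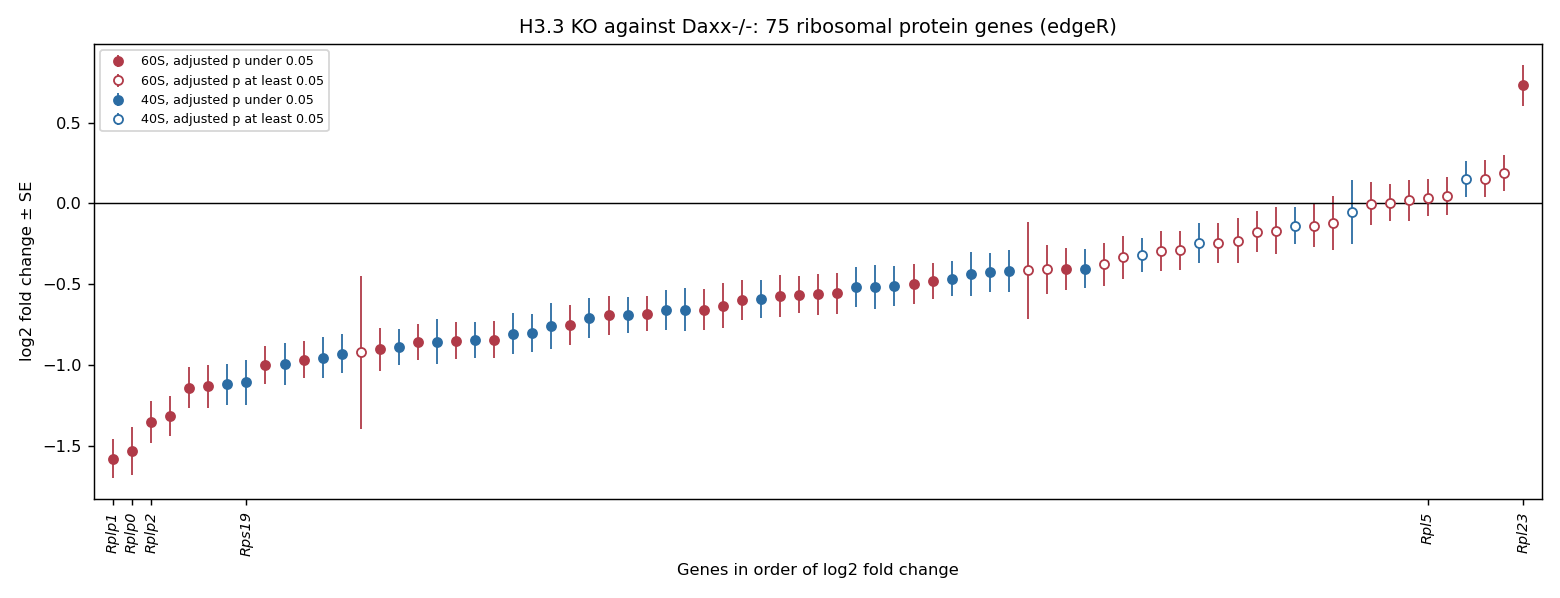
Log2 fold change (points) and SE (bars) of 75 ribosomal protein genes in H3.3 KO against Daxx-/-, ordered by value with 6 genes named, with red for 60S and blue for 40S and filled points for adjusted p under 0.05. The stalk genes are at the left end, at -1.58 to -1.35, and Rpl23 at 0.73 is at the right end.

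Members were also set beside other genes of like level and length. Among 313 other genes with mean levels of 395 to 3699 CPM, the range of the members without the lowest, the median log2 fold change was -0.06, with 51 (16.3%) lower and 24 higher. The 12 members of up to 500 nucleotides had a median of -0.80, beside -0.06 in 105 other genes of that length. The 21 members above that and up to 750 nucleotides had a median of -0.57, beside -0.26 in 353 other genes, and the next 20, up to 1000 nucleotides, had one of -0.43, beside -0.12 in 539. Other genes between 500 and 1000 nucleotides thus also had medians below 0. Medians were -0.49 in members and -0.03 in other genes from there to 1500 nucleotides, and -0.37 and 0.01 above that. Across the 73 members with a fold change and a length of up to 3000 nucleotides, Spearman's rho of length with fold change was 0.37, as a description across genes of the same libraries. The pyrimidine run at the start marked members that fell and members that did not. Rplp2 and Rps10 hold one and fell, Rpl27a (-0.24, SE 0.12) and Rpl35 (-0.14, SE 0.13) hold one and did not pass the test, and Rplp0 fell without one. Of 31 members with a run of at least 8, 18 (58.1%) fell, and of 25 without one 18 (72.0%) fell, with medians of -0.50 and -0.56.

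Leaving out replicate 1 of H3.3 KO kept 31 of the 50 calls and leaving out replicate 2 kept 28, and fitting the 4 libraries of this comparison alone kept 22, with no change of sign. Daxx-/- replicate 2, the library with the highest member share, left 44 of the 50 calls when it was left out. Of the 7 mESC markers Sox2, Esrrb and Klf4 were higher in H3.3 KO than in Daxx-/-, and feeder markers summed to 25.9 and 41.8 CPM in Daxx-/- and 11.2 and 8.78 CPM in H3.3 KO. In each of these 4 libraries most of that sum was Thy1, which was called lower (-2.10, SE 0.40, edgeR adjusted p = 0.00824), while Col1a1 was at 2.20 to 4.53 CPM and the other 6 feeder markers below 1 CPM. Of the trophoblast markers, Eomes was called lower (-0.92, SE 0.27, edgeR adjusted p = 0.0378). The part of these markers, and of strain, in the result was not tested.

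Other gene lists were read beside the 11.9% of all genes called lower and 11.5% called higher. Of 11 ribosomal protein genes named otherwise, 5 fell in H3.3 KO against Daxx-/- and 1 rose. Those that fell included Rpsa (-1.15, SE 0.12), Rps27l (-0.74, SE 0.15) and Fau (-0.49, SE 0.12), with edgeR adjusted p of 0.00102 to 0.018. Rpl22l1, the paralogue of Rpl22, rose by 0.86 (SE 0.14, edgeR adjusted p = 0.00384), while Rpl22 itself had -0.12 (SE 0.16). Of 18 other genes listed for TOP motifs, mainly of translation but with Vim, Hnrnpa1, Npm1 and Nap1l1 among them, 4 fell and none rose. The 4 were Eef1d (-0.52), Eif3h (-0.52), Pabpc1 (-0.50) and Gnb2l1 (-0.50). The median of the 18 was -0.19. Of 75 ribosome biogenesis genes 5 rose and 5 fell, with a median of 0.03, both shares below those of all genes. Fbl, the methyltransferase of box C/D snoRNPs, fell by 1.04 (SE 0.18) and Nle1, a factor of 60S maturation, fell by 1.64 (SE 0.20), whereas Utp18 rose by 0.72 (SE 0.17) and Taf1d, a subunit of the RNA polymerase I selectivity factor, rose by 1.20 (SE 0.35). Mitochondrial ribosomal protein genes, which build a separate ribosome, had a median of 0.04, with 3 higher and 9 lower of 76, a share lower near that of all genes. Among 18 growth control genes 2 rose and 3 fell. Larp1, a protein that binds TOP mRNAs, rose by 0.57 (SE 0.14). Rps6kb1, the kinase of the protein Rps6, rose by 0.93 (SE 0.20). Mycl1, Eif4ebp1 (-0.60, SE 0.16) and Eif4ebp2 (-0.70, SE 0.15) fell. The median of each gene's chromosome was not subtracted from the values of these lists. In this comparison those medians, without the members, ran from -0.36 on chromosome 8 to 0.60 on chromosome 14.

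Wild-type H3.3 was then compared with H3.3 KO. No member passed the edgeR test (0 of 76, beside 0.0379% of all genes called higher and 0.167% called lower), and limma called none. DESeq2 called 2, Rpl9 and Rps27, and the counts of Rps27 here come from H3.3 KO;WT replicate 2 (17.4 CPM). At an unadjusted p under 0.05, edgeR gave 17 members higher and 0 lower, where all genes gave 5.59% higher and 7.70% lower. The 2 H3.3 KO;WT libraries lay above both H3.3 KO libraries in 63 members (82.9%, against 29.2% of all genes) and below both in 8 (10.5%, against 26.7%). The median log2 fold change was 0.23 for 75 members and 0.02 for all genes.

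Rpl9, a large-subunit protein near the stalk base, had the highest value. It had 794 and 711 scaled CPM in H3.3 KO, 1029 and 1009 in H3.3 KO;WT and 937 and 899 in the mutant line, so neither transgenic line overlapped the KO. Its log2 fold change with wild-type H3.3 was 0.44 (SE 0.12, edgeR adjusted p = 0.203). Rpl36a and Rpl8 followed at 0.36 each (SE 0.13 and 0.11). Rpl8, at the peptidyl transferase centre, had 1316 and 1236 scaled CPM in H3.3 KO and 1633 and 1637 in H3.3 KO;WT, still below the 2353 to 2629 of the Daxx lines.

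The lowest 7 members in this comparison, Rpl23a (-0.26), Rps27a (-0.23), Rpl23 (-0.23), Rpl26 (-0.20), Rpl19 (-0.20), Rpl27 (-0.19) and Rpl38 (-0.13), were the 7 members on chromosome 11. This grouping was noticed after the values were seen, so it is given as a description. The other 1090 tested genes of chromosome 11 had a median log2 fold change of -0.31, with 83.1% below 0. Among the 68 members on other chromosomes with a fold change, 65 were above 0, with a median of 0.24, and 67 were above the median of their own chromosome. After each member's chromosome median was subtracted, the SD of the 75 fold changes went from 0.16 to 0.09, and the chromosome 11 members had a median of 0.11. The 389 other genes of chromosome 16, which holds Rpl24 and Rpl35a, had a median of -0.27.

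The L126A-L130A mutant was compared with the same H3.3 KO libraries, so both H3.3 comparisons share their control. No member passed the edgeR test (0 of 76, beside 0.212% of genes called higher and 0.758% lower), limma called none and DESeq2 called 8. At an unadjusted p under 0.05 edgeR gave 9 members higher (6.71% of all genes) and 8 lower (10.1% of all genes). The mutant libraries lay above both H3.3 KO libraries in 53 members (69.7%, against 26.1% of all genes) and below both in 9 (11.8%, against 23.9%). The median log2 fold change was 0.15 for 75 members and 0.04 for all genes.

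Highest were Rplp2 (0.41, SE 0.13, edgeR adjusted p = 0.163), Rpl37a (0.38, SE 0.12) and Rpl41 (0.34, SE 0.12). Rpl37a, a zinc-binding protein of the large subunit, had 451 and 418 scaled CPM in H3.3 KO and 561 and 568 in the mutant line, and its groups did not overlap. Lowest were the 7 members of chromosome 11, from -0.56 to -0.31. Rpl26, which also binds p53 mRNA, had 1197.5 and 1163 scaled CPM in H3.3 KO, 1033.5 and 1014 in H3.3 KO;WT and 768 and 832 in the mutant line. The mutant libraries of Rpl26 were the lowest of all 10, with a log2 fold change of -0.56 against the KO (SE 0.12, edgeR adjusted p = 0.0705). Rpl23a (-0.50, SE 0.13) had an edgeR adjusted p of 0.0997 and Rps27a (-0.47, SE 0.12) one of 0.101, and DESeq2 called these with Rpl23, Rpl19 and Rpl27 as lower.

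The other genes of chromosome 11 had a median of -0.39 in the mutant line against H3.3 KO, with 88.6% below 0, and members of that chromosome had a median of -0.45, or -0.06 after its subtraction. Of the 68 members elsewhere 64 were above 0 and 51 above their chromosome's median. Relative to the mean of the 10 libraries, genes of chromosome 11 stood at 0.28 and 0.24 in H3.3 KO, at 0.00 and -0.06 in H3.3 KO;WT and at -0.13 and -0.15 in the mutant line, as medians on the log2 scale. In the Daxx lines they stood between -0.09 and 0.00. The H3.3 KO libraries were thus the highest for this chromosome, and the 2 libraries of each line were close to each other.

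**Figure D4:**
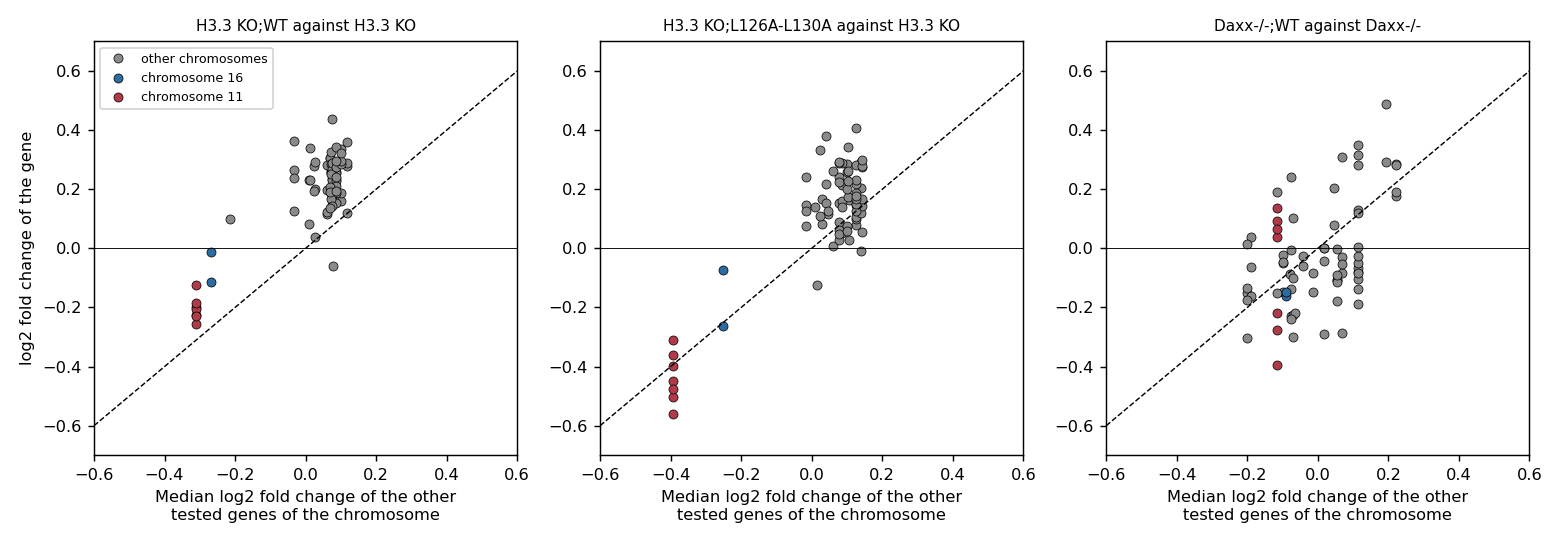
Log2 fold change of 75 ribosomal protein genes against the median log2 fold change of the other tested genes of the same chromosome, in 3 comparisons, with the line of equal values dashed. The 7 genes on chromosome 11 lie at the lower left in both H3.3 comparisons, where their chromosome's medians are -0.31 and -0.39, and there most of the other members lie above the line.

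Against wild-type H3.3, no member passed the edgeR test for the mutant (0 of 76, beside 0.242% of genes called higher and 0.273% lower). Limma called none and DESeq2 called 1, Rps27, whose counts here come from H3.3 KO;WT replicate 2 (17.4 CPM). At an unadjusted p under 0.05 edgeR gave 0 members higher (6.03% of all genes) and 1 lower (6.33% of all genes), Rpl26 (-0.36, SE 0.12, adjusted p = 0.279). Even so 41 members (53.9%) had both mutant libraries below both wild-type H3.3 libraries, against 22.9% of all genes, and 6 (7.89%) had both above, against 22.2%. The median was -0.08 for 75 members and 0.01 for all genes. Rps21 and Rpl41 were highest, each at 0.17 (SE 0.14 and 0.12). The paralogue Rpl22l1, outside the 76, fell by 0.81 in the mutant line against H3.3 KO (SE 0.14, edgeR adjusted p = 0.037) and by 0.81 against H3.3 KO;WT (SE 0.14, edgeR adjusted p = 0.048). It had 150 and 130 CPM in H3.3 KO, 136 and 136 in H3.3 KO;WT and 77.7 and 74.7 in the mutant line, beside 71.3 to 86.6 CPM in the Daxx lines.

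The last comparison set Daxx-/-;WT beside Daxx-/-, and no member passed the test. With edgeR 0 of 76 members passed, beside 0.417% of all genes called higher and 0.924% lower, limma called none and DESeq2 called 1, Rpl26. At an unadjusted p under 0.05 edgeR gave 4 members higher (9.64% of all genes) and 3 lower (11.9% of all genes). The Daxx-/-;WT libraries lay above both Daxx-/- libraries in 15 members (19.7%, against 22.2% of all genes) and below both in 24 (31.6%, against 24.0%). The median log2 fold change was -0.06, and 0.01 without Daxx-/- replicate 2, in which 53 of 75 members were higher than in replicate 1, beside 47.4% of all genes.

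Rpl26 was the lowest member here as well as in the mutant line. It had 1600 and 1872 scaled CPM in Daxx-/- and 1276 and 1364 in Daxx-/-;WT, without overlap, and a log2 fold change of -0.39 (SE 0.12, edgeR adjusted p = 0.124). Rpl22 (-0.30, SE 0.16) and Rps26 (-0.30, SE 0.12) were next lowest. Rps26, at the mRNA exit of the small subunit, had 1023.5 and 1189.5 scaled CPM in Daxx-/- and 859 and 937 in Daxx-/-;WT. Rplp2 had 0.35 (SE 0.13, edgeR adjusted p = 0.168) and Rpl34, at 14.5 and 10.4 against 20.2 and 14.7 scaled CPM, had 0.49 (SE 0.30). The SD of the 75 fold changes was 0.18, and 0.16 after subtraction of each chromosome's median, which ranged from -0.20 on chromosome 4 to 0.27 on chromosome 19, where no member lies.

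The effects of DAXX and of the H3.3 transgenes were also compared with each other. The difference of the effects passed for 0 of 76 members by edgeR, beside 0.0455% of all genes for wild-type H3.3 and 0.0227% for the mutant. At an unadjusted p under 0.05 edgeR gave 12 members with a lower effect of DAXX than of wild-type H3.3 (15.8%, against 7.38% of all genes) and 0 with a higher one (6.39% of all genes). Against the mutant it gave 6 lower (5.84% of all genes) and 3 higher (5.2% of all genes). Only the edgeR test was run on these differences.

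**Figure D5:**
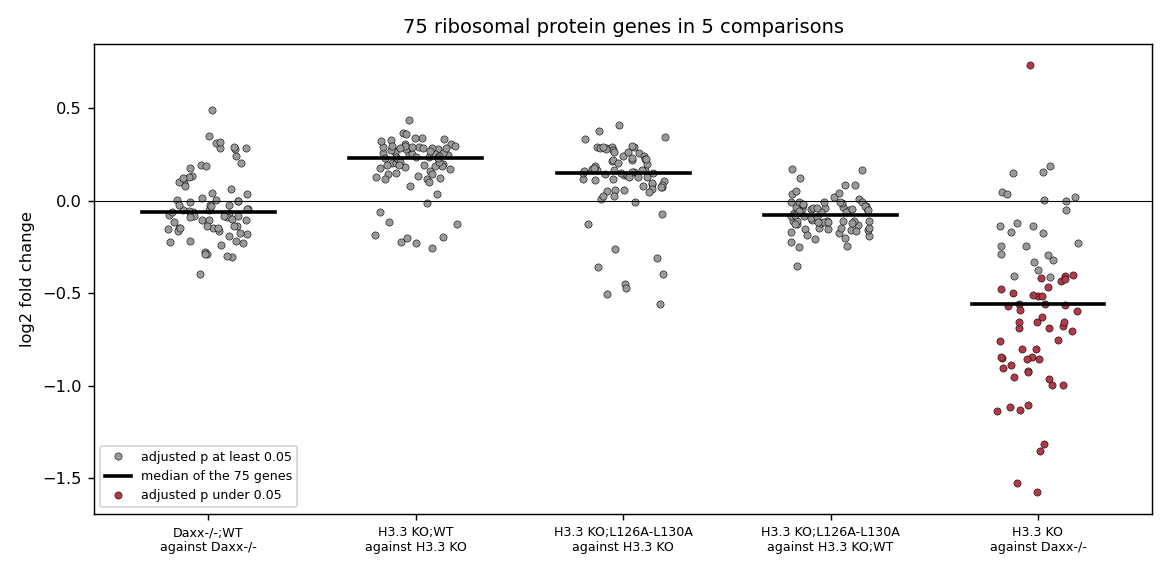
Log2 fold change of 75 ribosomal protein genes in 5 comparisons, with a bar at each median and red points for adjusted p under 0.05. Only H3.3 KO against Daxx-/- holds red points, with a median of -0.56, and the medians of the other comparisons lie between -0.08 and 0.23.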

How the data were processed

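Polyadenylated RNA of 10 mESC libraries was sequenced by the study. The authors deposited expected counts per gene as estimated by RSEM (the values are not whole and sum to library totals, although the table is named TPM). Bowtie, RSEM and the build mm9 are named in the submitters' processing notes, and versions and annotation are not given in the sources used here. The library kit does not mark strand. Counts were rounded and tested with edgeR 4.0.16 (R 4.3.3) in all 10 libraries together, with median-of-ratios scaling, for the 13201 genes that reached 1 CPM in 2 or more libraries, a group that holds all 76 members. A gene was called at a Benjamini-Hochberg adjusted p under 0.05. The test was checked on counts simulated with a smaller spread between replicates than these data (fitted common dispersion 0.0521). It called 77 of 100 genes given a log2 change of 1. Smaller changes, such as most members showed, were not simulated. DESeq2 1.42.0, limma 3.58.1 on log2(CPM + 1), other scalings and filters, a replicate block and leaving out each library were alternatives. Chromosomes were matched by symbol or synonym for 20148 of 20325 genes. As the build differs, GRCm38.p6 coordinates are given for promoters only. Named were mainly members called in any comparison, the 3 highest and 3 lowest in each, the extremes of level and spread, and called genes of other lists, with further members chosen after their values were seen. The 3 genes with the most similar profile were named by Euclidean distance. Some members and list genes enter the counts but are not reported by name here. The members and lists were chosen with earlier results of these data known.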

Additional observations from a re-analysis of the deposited data

Results flagged for a closer look

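In 4 members the DAXX transgene and the H3.3 transgenes moved the level in opposite directions without overlap of the libraries. For none of them did edgeR's test of the difference between the effects pass, and no member of the 76 did by that test.

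Rpl23 was 0.14 higher with DAXX and 0.23 lower with wild-type H3.3 on the log2 scale, a difference of 0.36 (edgeR adjusted p = 0.41), and the difference from the mutant was 0.59 (adjusted p = 0.314). It lies on chromosome 11, and after subtraction of the chromosome medians it was at 0.25 with DAXX and 0.09 with wild-type H3.3, so that the directions were no longer opposite, and at -0.06 with the mutant. Rpl37a was 0.16 lower with DAXX and 0.33 higher with wild-type H3.3, a difference of -0.49 (edgeR adjusted p = 0.275), and -0.54 from the mutant (adjusted p = 0.309). After the same subtraction Rpl37a was at 0.03 with DAXX, 0.25 with wild-type H3.3 and 0.34 with the mutant, so its directions were no longer opposite either. Rpl41 and Rps26 kept opposite signs. For Rpl41 the differences were -0.40 (edgeR adjusted p = 0.357) and -0.57 (adjusted p = 0.317). For Rps26 they were -0.45 (edgeR adjusted p = 0.318) and -0.53 (adjusted p = 0.355).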

How the results depend on the processing

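Member calls in H3.3 KO against Daxx-/- numbered 50, between 45 and 54 under other scalings, filters, DESeq2, limma and the replicate block, 22 when fitted alone and 28 to 49 with a library left out. In the other comparisons edgeR called 0. The DESeq2 calls given next include Rps27 in both comparisons with H3.3 KO;WT. DESeq2 called 1 with DAXX, 2 with wild-type H3.3, 8 with the mutant and 1 for the mutant against wild-type H3.3, and leaving out a library gave 0 to 1 with DAXX and 0 to 2 with the mutant. With replicate number as a block there were 1, 0, 4, 0 and 54 calls, in the order DAXX, wild-type H3.3, mutant, mutant against wild type and H3.3 KO against Daxx-/-. The blocked calls were Rpl26 with DAXX and Rpl23, Rpl23a, Rpl26 and Rps27a, all lower, with the mutant. Replicate differences correlated at 0.27 to 0.58 in 7 of 10 pairs of lines and at -0.04 to 0.07 in 3 pairs with H3.3 KO. The numbers may thus mark structure that most lines share, but the labels name none. The median log2 fold change was 0.20 (wild-type H3.3), 0.0899 (mutant) and -0.489 (H3.3 KO against Daxx-/-) with library size alone, and 0.17, 0.071 and -0.483 after subtraction of chromosome medians, chosen after seeing the data. With a library left out it ranged from -0.0947 to 0.0116 for DAXX and from -0.60 to -0.50 for H3.3 KO against Daxx-/-. The log2 ratio of summed shares was 0.18 (wild-type H3.3) and 0.0911 (mutant) with scaled counts, and with a library left out ranged from -0.178 to 0.0723 for DAXX, from -0.0269 to 0.0888 for the mutant and from -0.59 to -0.34 for H3.3 KO against Daxx-/-. The log2 ratio of the subunit ratios was 0.13 for H3.3 KO against Daxx-/- without Rplp0 and 0.062 with it. The causes of these shifts were not tested. With 2 libraries per line, an uncalled member is not shown to be equal between lines.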

Other observations

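Outside the members, the genes whose profile over the 10 libraries lay closest to the mean profile of 72 members (Euclidean distance of centred log2(CPM + 1) values) were Araf (0.17), a RAF kinase, Lman2l (0.18), a cargo receptor of the secretory pathway, and Vps4a (0.22), an ATPase of the ESCRT machinery. Araf had 53.0 and 68.3 CPM in Daxx-/- and 45.0 and 44.7 CPM in H3.3 KO. Of 11 ribosomal protein genes named otherwise, Rpl10l, a retrogene of Rpl10, is given here after its values were seen. It had 22.5 and 35.0 CPM in H3.3 KO, 54.5 and 104.5 CPM in H3.3 KO;WT and 2.85 and 13.4 CPM in H3.3 KO;L126A-L130A, and its log2 fold change for the mutant against wild-type H3.3 was -3.27 (SE 0.60, edgeR adjusted p = 0.0619).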
